A study of Mus musculus with 9 samples.

Results

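The genes examined here encode 9 kinases that move high-energy phosphate between nucleotides or between ATP and creatine, and that are known or thought to serve flagella and cilia. They are the adenylate kinases Ak1, Ak7, Ak8 and Ak9, the nucleoside diphosphate kinase family members Nme7 and Nme8, and the creatine kinases Ckb, Ckmt1 and Ckmt2. The genes were chosen by symbol, as the rows of the count table whose Ensembl ID carries one of these names in GENCODE M21, and all 9 were found among the 23074 genes of the table. RNA-seq was carried out on decapsulated testes at postnatal days 29 to 30, from 5 mice that were wild type and 4 that were Rfx2-/-, all on a mixed background of C57BL/6, 129/Sv and FVB/N, with 1 library per mouse. RFX2 binds DNA at X-box motifs, like the other transcription factors of its family. The mutant allele lacks exon 7, removed by a Cre transgene under the ubiquitous ACTB promoter, the mixed background line kept a neomycin cassette, and littermates of the same age served as controls where possible. The question was which of these kinase mRNAs differed in amount when RFX2 was missing.

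A sperm flagellum is long and thin, and ATP made by mitochondria of the midpiece or by glycolysis along the principal piece has to reach dynein motors throughout the axoneme. Adenylate kinases interconvert ATP, ADP and AMP, nucleoside diphosphate kinases transfer the terminal phosphate between nucleotides, and creatine kinases store and shuttle phosphate as phosphocreatine, so these enzymes can carry energy between the place of its production and the place of its use. Several of the family members are built into the axoneme itself.

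The libraries held 13574764 to 15193330 counts, except for Rfx2-/- replicate 1 with 28800855. CPM, the unit of level used throughout, are counts divided by the library total times its TMM factor, and are given as mean ± SD. Rfx2 itself, the targeted gene, was at 548.8 ± 54.4 CPM in the wild type group (n = 5) and 146.0 ± 59.7 CPM in the Rfx2-/- group (n = 4), and the log2 fold change was -1.91 (SE 0.28, edgeR adjusted p 0.000781). A 3-count floor, the mean that an observed count of 0 still allows at 95% confidence, corresponded to 0.0995 CPM in Rfx2-/- replicate 1 and to 0.196 to 0.234 CPM in the other libraries. The testis label was checked with marker lists, and germ cell, Sertoli cell, Leydig cell, peritubular cell and macrophage markers were all detected. The study reports that Rfx2-/- spermatids arrest before they elongate. Summed markers of elongating spermatids were at 9772 to 20400 CPM in wild type and 8050 to 12620 CPM in Rfx2-/- libraries. Of these 15 markers 0 were called lower and 1 higher under the limits given below, with a median log2 fold change of -0.58. The list includes Tnp1 and Tnp2, whose mRNAs the study describes as not reduced and as already present, untranslated, in late round spermatids. The sum therefore does not show whether elongating spermatids were present. Round spermatid markers summed to 1961 to 2941 and 2069 to 3457 CPM. Those of meiotic spermatocytes were at 2007 to 2466 and 2506 to 4111 CPM. In whole testis, fewer cells of a type and less RNA per cell cannot be told apart.

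Of the 9 kinase genes, 8 had enough counts to be tested. To be called, a gene needed an edgeR adjusted p of 0.01 or less together with more than a 2-fold change. Of these, 2 genes, Ckmt2 and Ak9, met both limits and were lower in Rfx2-/- testes, and 0 were called higher. Over all 15613 genes tested, 3.68% were called lower and 0.826% higher. The median log2 fold change of the 8 kinase genes was -0.38, against 0.03 for all genes tested, with 6 of the 8 below 0. Ckmt2, Ak9 and Ak8 were the 3 genes in which every Rfx2-/- library lay under every wild type library, an arrangement seen for 9.7% of all genes tested.

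Promoter windows are shown for the 4 of these genes on which the comparison turns. Ckmt2 and Ak9 were called lower, and Ak8 missed the limits. Nme7 did not differ detectably, but its window held an X-box complete by the pattern given below. These windows, from 250 bases before to 50 bases after the transcription start in RefSeq (GRCm38.p6), show what lies at those starts. They are written 5′ to 3′ on the strand of the gene, with capitals marking GTTGCC or its reverse complement GGCAAC, a conserved arm of the X-box, and the whole X-box where it is complete. The windows are chr13:91876836-91877135 on the minus strand for Ckmt2, and on the plus strand chr10:41303684-41303983 for Ak9, chr2:28699911-28700210 for Ak8 and chr1:164307422-164307721 for Nme7.
Ckmt2: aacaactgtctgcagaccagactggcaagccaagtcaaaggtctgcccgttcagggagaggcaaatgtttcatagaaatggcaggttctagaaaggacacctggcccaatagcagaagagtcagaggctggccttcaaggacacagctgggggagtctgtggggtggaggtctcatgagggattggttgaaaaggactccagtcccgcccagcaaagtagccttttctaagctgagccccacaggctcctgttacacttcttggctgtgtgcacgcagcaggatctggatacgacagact
Ak9: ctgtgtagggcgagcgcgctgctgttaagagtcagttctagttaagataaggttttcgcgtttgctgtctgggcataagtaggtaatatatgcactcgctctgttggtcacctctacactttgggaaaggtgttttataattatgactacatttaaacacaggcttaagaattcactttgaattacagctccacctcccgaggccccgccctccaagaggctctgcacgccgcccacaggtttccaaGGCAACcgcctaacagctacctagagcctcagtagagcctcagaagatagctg
Ak8: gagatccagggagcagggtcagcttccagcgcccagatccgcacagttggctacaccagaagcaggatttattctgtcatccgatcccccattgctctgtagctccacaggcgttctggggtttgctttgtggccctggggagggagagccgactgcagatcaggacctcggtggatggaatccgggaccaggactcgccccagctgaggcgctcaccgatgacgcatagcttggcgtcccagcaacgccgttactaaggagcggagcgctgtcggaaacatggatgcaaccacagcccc
Nme7: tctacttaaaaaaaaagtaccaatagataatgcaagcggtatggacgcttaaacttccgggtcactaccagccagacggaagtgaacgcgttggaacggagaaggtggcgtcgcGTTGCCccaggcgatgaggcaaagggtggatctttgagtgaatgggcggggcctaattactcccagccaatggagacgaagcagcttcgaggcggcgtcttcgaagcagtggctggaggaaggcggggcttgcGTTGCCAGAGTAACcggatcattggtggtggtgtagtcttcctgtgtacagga

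An X-box was taken as complete where GTNRCC was followed, directly or after a few bases, by RGYAAC, on either strand. N is any base, R is A or G and Y is C or T. Of these windows, the one of Nme7 alone matched this pattern in full, with GTTGCCAGAGTAAC beginning at position -3 relative to the RefSeq start. This window also held a further GTTGCC at position -136. The Nme7 window lies inside the GENCODE span of the gene, which begins upstream at 164304121, so the 2 annotations differ on the start. It also covers the start of Blzf1, which is transcribed in the opposite direction. The Ak9 window held 1 GGCAAC at position -3, and the windows of Ckmt2 and Ak8 held neither motif. The bases directly before this GGCAAC in Ak9 read GTTTCCAA, so the whole stretch missed the pattern only by a T in place of R. Of the other members, Ak1 had GTTGCC in either orientation in 2 of its 4 RefSeq windows, and the windows of Ak7, Ckb, Nme8 and Ckmt1 had none. Searched on both strands in 32851 RefSeq windows of the same length, GTTGCC was present in 12.5% and the X-box in 1.53%, and every X-box that contains GTTGCC is also counted under the shorter motif. A match describes letters only. The study's separate RFX2 chromatin immunoprecipitation used dissociated germ cells from wild type mice younger than those here. In its list of promoter peaks, Ak8 was the only one of the 9 kinase genes. The neighbouring genes Spaca9, Fig4 and Blzf1, described below with Ak8, Ak9 and Nme7, were listed too. The share of all genes in that list was not computed, so the number of kinase genes in it cannot be weighed.

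The creatine kinases showed the clearest difference. Ckmt2 (ENSMUSG00000021622, GRCm38 chromosome 13, 91853387 to 91876885, minus strand, 10 merged exons) encodes the sarcomeric mitochondrial creatine kinase, which sits between the mitochondrial membranes and is best known from heart and skeletal muscle. Its raw counts in wild type replicates 1 to 5 were 283, 286, 197, 270 and 313, or 21.62, 22.13, 13.09, 19.89 and 24.38 CPM. In Rfx2-/- replicates 1 to 4 they were 0, 2, 2 and 0, or 0, 0.1336, 0.1362 and 0 CPM. The mRNA was therefore readily counted in every wild type testis and at or under the 3-count floor in every Rfx2-/- testis, with no overlap. Summed over libraries there were 1349 counts in wild type and 4 in Rfx2-/-. The pooled Rfx2-/- level was 0.0533 CPM (exact Poisson 95% interval 0.0145 to 0.136), and the wild type level was 375 times as high (95% interval 146 to 1380), intervals that cover counting error only. The fitted log2 fold change was -8.34 (SE 0.47, edgeR adjusted p 2.05e-07), a size that depends on the prior count because the Rfx2-/- counts are so few.

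Ckmt2 shares sequence with 1 other gene. The antisense gene 1700119I11Rik (chromosome 13, 91861432 to 91862044) lies within its span on the opposite strand and overlaps 84 of its 1486 exon bases. This antisense gene averaged 1.54 ± 0.755 CPM over wild type libraries (SD, n = 5), had 0 counts in each Rfx2-/- library, and was at least 8.78-fold lower against a floor of 3 counts per library (edgeR adjusted p 0.000859). Reads on exons of more than 1 gene were not counted, and whether strand was used to tell such genes apart is not stated. By far the greater part of the Ckmt2 exons lies outside the overlap, and 2.505% of its 50-base stretches also occur in another gene. Markers of skeletal and cardiac muscle, the tissues in which this kinase is best known, summed to 2.65 to 3.76 CPM in wild type and 2.18 to 7.996 CPM in Rfx2-/- libraries, and none of their 7 genes was at 0 in all libraries.

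Ckmt1 (ENSMUSG00000000308, chromosome 2, 121357714 to 121363737, plus strand) encodes the ubiquitous mitochondrial isoform, which has the same place in the mitochondrion. It had 3, 0, 2, 1 and 3 counts in wild type replicates 1 to 5 and 4, 6, 2 and 5 counts in Rfx2-/- replicates 1 to 4. These counts were too low for the test, overlapped between genotypes, and gave 0.134 ± 0.101 CPM (SD, n = 5) for wild type against 0.249 ± 0.136 CPM (SD, n = 4) for Rfx2-/- testes. No difference in Ckmt1 was detectable at this depth. In the Rfx2-/- libraries both mitochondrial creatine kinase mRNAs were thus at the lower end of detection.

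Ckb (ENSMUSG00000001270, chromosome 12, 111669361 to 111672338, minus strand) encodes the brain-type creatine kinase of the cytosol. Its levels were 5.424, 5.648, 4.517, 5.157 and 4.596 CPM in wild type replicates 1 to 5, and 4.38, 8.016, 8.035 and 5.752 CPM in Rfx2-/- replicates 1 to 4. Replicate 1 of the Rfx2-/- group was under every wild type library and the other 3 were above, so that the groups overlapped. The means were 5.07 ± 0.499 CPM (SD, n = 5) and 6.55 ± 1.798 CPM (SD, n = 4), and the log2 fold change of 0.36 (SE 0.21, 95% interval -0.09 to 0.81, edgeR adjusted p 0.271) did not pass. Of the 50-base stretches of Ckb, 21.93% also occur in another gene, mainly Gm12892, and the authors discarded reads with more than 1 position.

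Set per kilobase of exon, the 4 creatine kinase mRNAs including the muscle-type Ckm summed to 17.3 ± 3.06 CPM per kb in wild type (12.16 to 19.82) and 4.74 ± 1.26 CPM per kb in Rfx2-/- testes (3.249 to 5.888), without overlap. Ckmt2 made up 78.0% ± 3.69 of the wild type sum (SD, n = 5, lowest 72.41%, highest 82.78%) and 0.786% ± 0.908 of the Rfx2-/- sum (SD, n = 4, lowest 0%, highest 1.616%). Ckb made up 20.3% ± 3.36 and 93.5% ± 2.04. The prevailing creatine kinase mRNA was thus a mitochondrial one in wild type and the cytosolic one in Rfx2-/- testes, with the Ckb level itself not shown to differ.

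**Figure D1:**
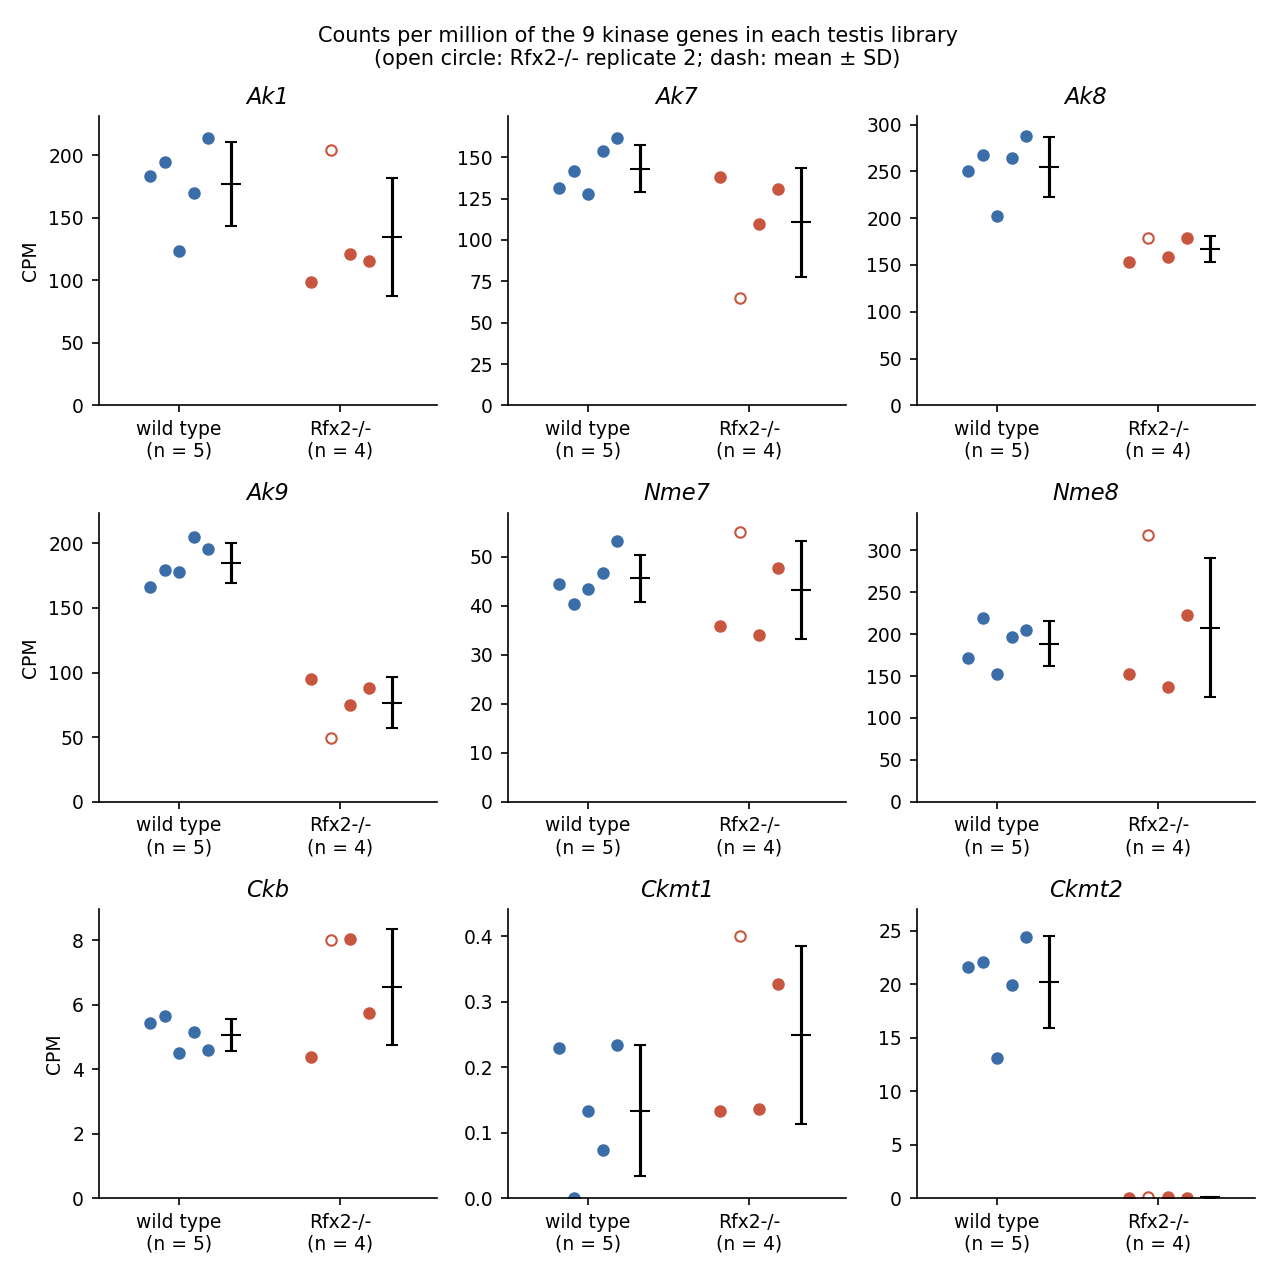
Level of each kinase mRNA in CPM (vertical axis, starting at 0, its own scale for each gene) in the 5 wild type and 4 Rfx2-/- testis libraries, with the mean and SD as a dash with bars and Rfx2-/- replicate 2 as an open circle. Ckmt2 lay at 13.09 to 24.38 CPM in wild type and at 0 to 0.1362 CPM in Rfx2-/- libraries, Ak9 and Ak8 were also without overlap, and the other 6 genes overlapped.

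Among the adenylate kinases, Ak9 fell and the other 3 were not called. Ak9 (ENSMUSG00000091415, chromosome 10, 41303980 to 41434534, plus strand) encodes a large protein with several adenylate kinase domains and has the longest mRNA of the 9, with 6968 bases in 40 merged exons. Wild type replicates 1 to 5 had 166, 179.2, 178.2, 205.3 and 195.3 CPM. Rfx2-/- replicates 1 to 4 had 94.7, 49.37, 74.9 and 88.3 CPM. All 4 Rfx2-/- libraries were under the lowest wild type library, and replicate 2 was the lowest of all. The mean went from 184.8 ± 15.5 CPM (SD, n = 5) to 76.8 ± 20.1 CPM (SD, n = 4), or 41.6% of wild type, with a log2 fold change of -1.27 (SE 0.19, 95% interval -1.67 to -0.86, edgeR adjusted p 0.000767). Ak9 was called in each of the 9 fits that left out 1 library. A test for a change beyond 2-fold was not passed (edgeR adjusted p 0.689, the highest over all alternatives), and the interval includes changes smaller than 2-fold. The lowest adjusted p over all alternatives was 1.33e-09, from DESeq2. The start of Ak9 lies 720 bases from that of Fig4, a phosphoinositide phosphatase gene transcribed in the opposite direction, which was at 33.7 ± 2.18 and 29.9 ± 8.10 CPM and was not called (log2 fold change -0.17, edgeR adjusted p 0.578).

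Ak8 (ENSMUSG00000026807, chromosome 2, 28700164 to 28813165, plus strand, 13 merged exons) encodes an adenylate kinase of cilia and flagella. It had 250.1, 268, 202.4, 264.5 and 287.4 CPM in wild type replicates 1 to 5 and 152.7, 178.6, 158.5 and 178.4 CPM in Rfx2-/- replicates 1 to 4. The highest Rfx2-/- library was under the lowest wild type library, replicate 3. With means of 254.5 ± 32 CPM (SD, n = 5) and 167.0 ± 13.4 CPM (SD, n = 4), or 65.6% of wild type, the log2 fold change was -0.61 (SE 0.14, 95% interval -0.92 to -0.30, edgeR adjusted p 0.0158). Ak8 therefore missed both limits. With the limit on the adjusted p eased to 0.05 and no limit on the fold, 7.31% of all genes tested were lower and 3.48% higher, and 3 of the 8 kinase genes were lower, with Ak8 joining Ckmt2 and Ak9, and 0 higher. Its edgeR adjusted p rose past 0.05 without wild type replicate 2 (0.052) and without Rfx2-/- replicate 3 (0.056). It was under 0.01 without Rfx2-/- replicate 2 (0.00353), without wild type replicate 3 (0.00967) and with the length trend removed (0.00206). The change was still less than 2-fold in each of these fits. Over all alternatives the adjusted p ranged from 0.000244 with DESeq2 to 1 in the edgeR test against the 2-fold limit. The start of Spaca9, a sperm acrosome associated gene on the opposite strand, is 437 bases away, and its mRNA overlapped between genotypes (200.7 ± 43.2 and 170.5 ± 64.1 CPM, log2 fold change -0.24, edgeR adjusted p 0.547).

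Ak7 (ENSMUSG00000041323, chromosome 12, 105705976 to 105782447, plus strand, 18 merged exons) encodes another adenylate kinase of motile cilia and the sperm flagellum. Wild type replicates 1 to 5 had 131.5, 141.6, 127.5, 153.6 and 161.6 CPM, and Rfx2-/- replicates 1 to 4 had 137.9, 64.66, 109.8 and 130.7 CPM. Replicates 1 and 4 of the Rfx2-/- group were inside the wild type range, replicate 3 was under it and replicate 2 far under it. The means were 143.2 ± 14.4 CPM (SD, n = 5) and 110.8 ± 33.0 CPM (SD, n = 4), and the log2 fold change of -0.37 (SE 0.20, 95% interval -0.81 to 0.07, edgeR adjusted p 0.255) became -0.18 without replicate 2 (edgeR adjusted p 0.352, with a range of 0.139 to 1 over all alternatives).

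Ak1 (ENSMUSG00000026817, chromosome 2, 32621758 to 32635058, plus strand, 9 merged exons) encodes the main cytosolic adenylate kinase, which is found in many tissues and in sperm tails. In wild type replicates 1 to 5 it had 183.6, 194.5, 123.8, 169.4 and 213.8 CPM. In Rfx2-/- replicates 1 to 4 it had 98.74, 204.4, 120.7 and 115.2 CPM. Replicate 2 was inside the wild type range and the other 3 Rfx2-/- libraries were under it. The means of 177.0 ± 33.9 CPM (SD, n = 5) and 134.7 ± 47.4 CPM (SD, n = 4) gave a log2 fold change of -0.39 (SE 0.23, 95% interval -0.89 to 0.10, edgeR adjusted p 0.274). Without Rfx2-/- replicate 2 it was -0.67 (edgeR adjusted p 0.0115, the lowest over all alternatives), which was also not called.

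Taken per kilobase of exon, these 4 adenylate kinase mRNAs summed to 310.1 ± 39.1 CPM per kb in wild type (SD, n = 5, 248.3 to 354.2) and 210.4 ± 15.2 CPM per kb in Rfx2-/- testes (SD, n = 4, 197.4 to 228.5), without overlap. Ak8 was the leading gene of the 4 in every library, with 52.4% ± 0.444 of this sum in wild type (51.78 to 52.82) and 50.6% ± 1.32 in Rfx2-/- testes (49.38 to 52.34). Ak9 held 8.64% ± 1.09 in wild type (7.846 to 10.3) and 5.31% ± 1.6 in Rfx2-/- testes (3.101 to 6.886), and was the only one of the 4 whose shares did not overlap between genotypes. The shares of Ak1 were 24.0% ± 2.10 and 26.8% ± 7.63, and those of Ak7 were 15.0% ± 1.09 and 17.2% ± 5.74, with Rfx2-/- replicate 2 the highest of all libraries for Ak1 and the lowest for Ak7.

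**Figure D2:**
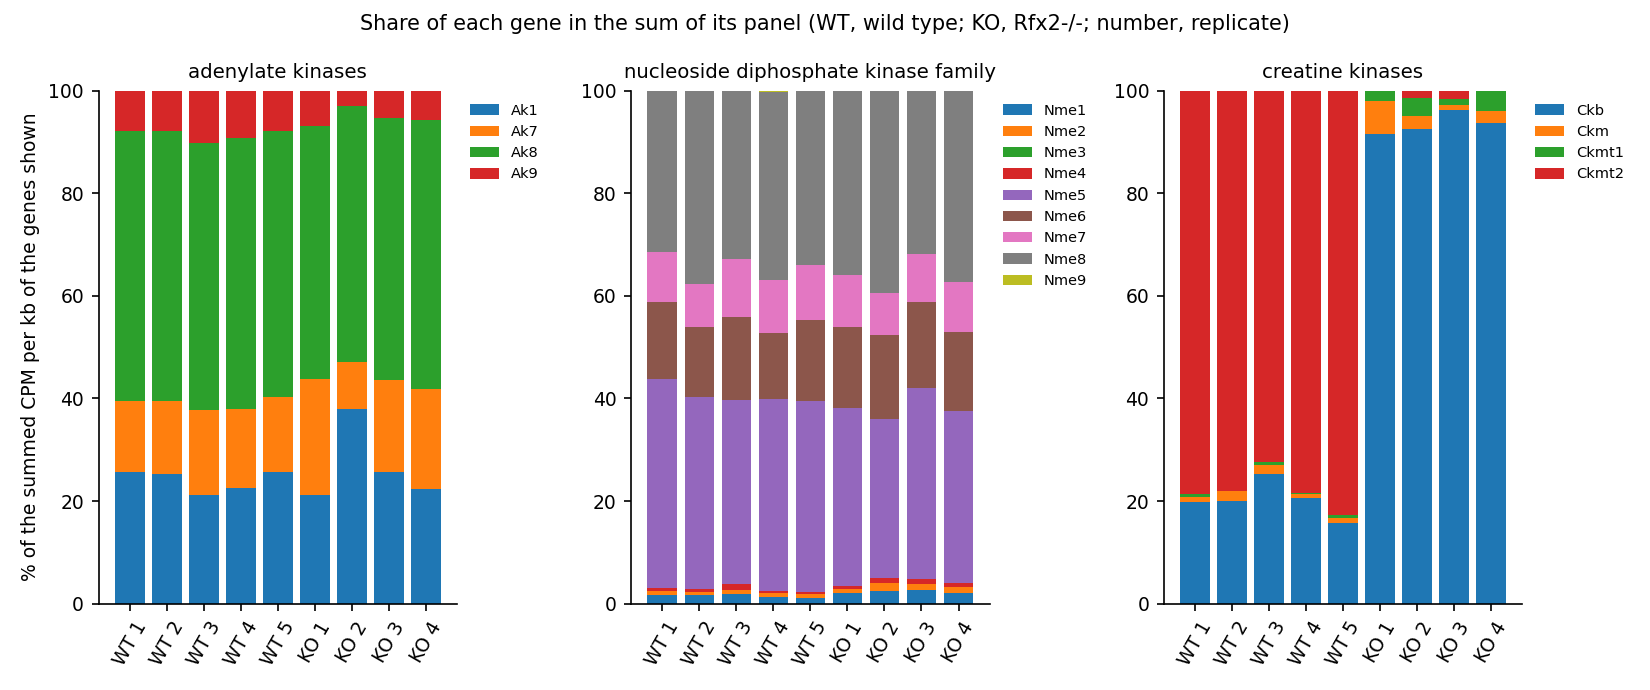
Share of each gene in the summed CPM per kb of the genes shown in its panel (vertical axis, percent), with 1 stacked bar for each of the 5 wild type (WT) and 4 Rfx2-/- (KO) libraries and 1 panel each for the 4 adenylate kinases described here, the nucleoside diphosphate kinase family and creatine kinases. Ckmt2 took 72.41% to 82.78% of the creatine kinase sum in wild type and at most 1.616% in Rfx2-/- libraries, whereas Ak8 and, with Nme5, Nme8 remained the largest parts of their panels in both genotypes.

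The nucleoside diphosphate kinase family members were not called. Nme8 (ENSMUSG00000041138, chromosome 13, 19645078 to 19697794, minus strand, 17 merged exons) encodes a protein with a thioredoxin domain and nucleoside diphosphate kinase domains, and its human counterpart is linked to primary ciliary dyskinesia. It had 171.5, 219.2, 152.3, 196.1 and 205 CPM in wild type replicates 1 to 5 and 152.5, 318.8, 136.9 and 222.5 CPM in Rfx2-/- replicates 1 to 4. The Rfx2-/- libraries lay on both sides of the wild type range, with replicate 2 the highest and replicate 3 the lowest of all 9. Means of 188.8 ± 26.8 CPM (SD, n = 5) and 207.7 ± 82.9 CPM (SD, n = 4) gave a log2 fold change of 0.14 (SE 0.23, 95% interval -0.37 to 0.65, edgeR adjusted p 0.732), which was -0.15 without Rfx2-/- replicate 2.

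Nme7 (ENSMUSG00000026575, chromosome 1, 164304121 to 164437725, plus strand, 15 merged exons) encodes a family member of the axoneme, where it lies inside the doublet microtubules, and of the gamma-tubulin ring complex. Wild type replicates 1 to 5 had 44.31, 40.38, 43.38, 46.64 and 53.13 CPM, and Rfx2-/- replicates 1 to 4 had 35.9, 55.05, 33.98 and 47.71 CPM. Replicates 1 and 3 of the Rfx2-/- group were under the wild type range, replicate 4 was inside and replicate 2 above. The means of 45.6 ± 4.78 CPM (SD, n = 5) and 43.2 ± 9.98 CPM (SD, n = 4) gave a log2 fold change of -0.08 (SE 0.16, 95% interval -0.44 to 0.28, edgeR adjusted p 0.78). This sign turned to 0.06 when libraries were scaled by total counts alone, and to 0.03 and 0.05 without Rfx2-/- replicates 1 and 3, so that no direction can be given. Nme7, whose RefSeq window held the complete X-box, was thus not shown to differ, and the interval leaves room for changes of less than 2-fold in either direction.

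Nme7 overlaps 2 genes of the opposite strand. It shares 192 exon bases, 10.89% of its length, with Atp1b1, a subunit gene of the sodium pump, which was not called (log2 fold change 0.10, edgeR adjusted p 0.675). Blzf1, which encodes a Golgi protein and overlaps only the span of Nme7, went from a wild type mean of 50.5 ± 3.62 CPM (SD, n = 5) to 65.2 ± 7.84 CPM (SD, n = 4). Every Rfx2-/- library of Blzf1 was above the wild type libraries, as for 6.16% of all genes tested, but the difference was not called (log2 fold change 0.37, SE 0.13, edgeR adjusted p 0.0874).

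**Figure D3:**
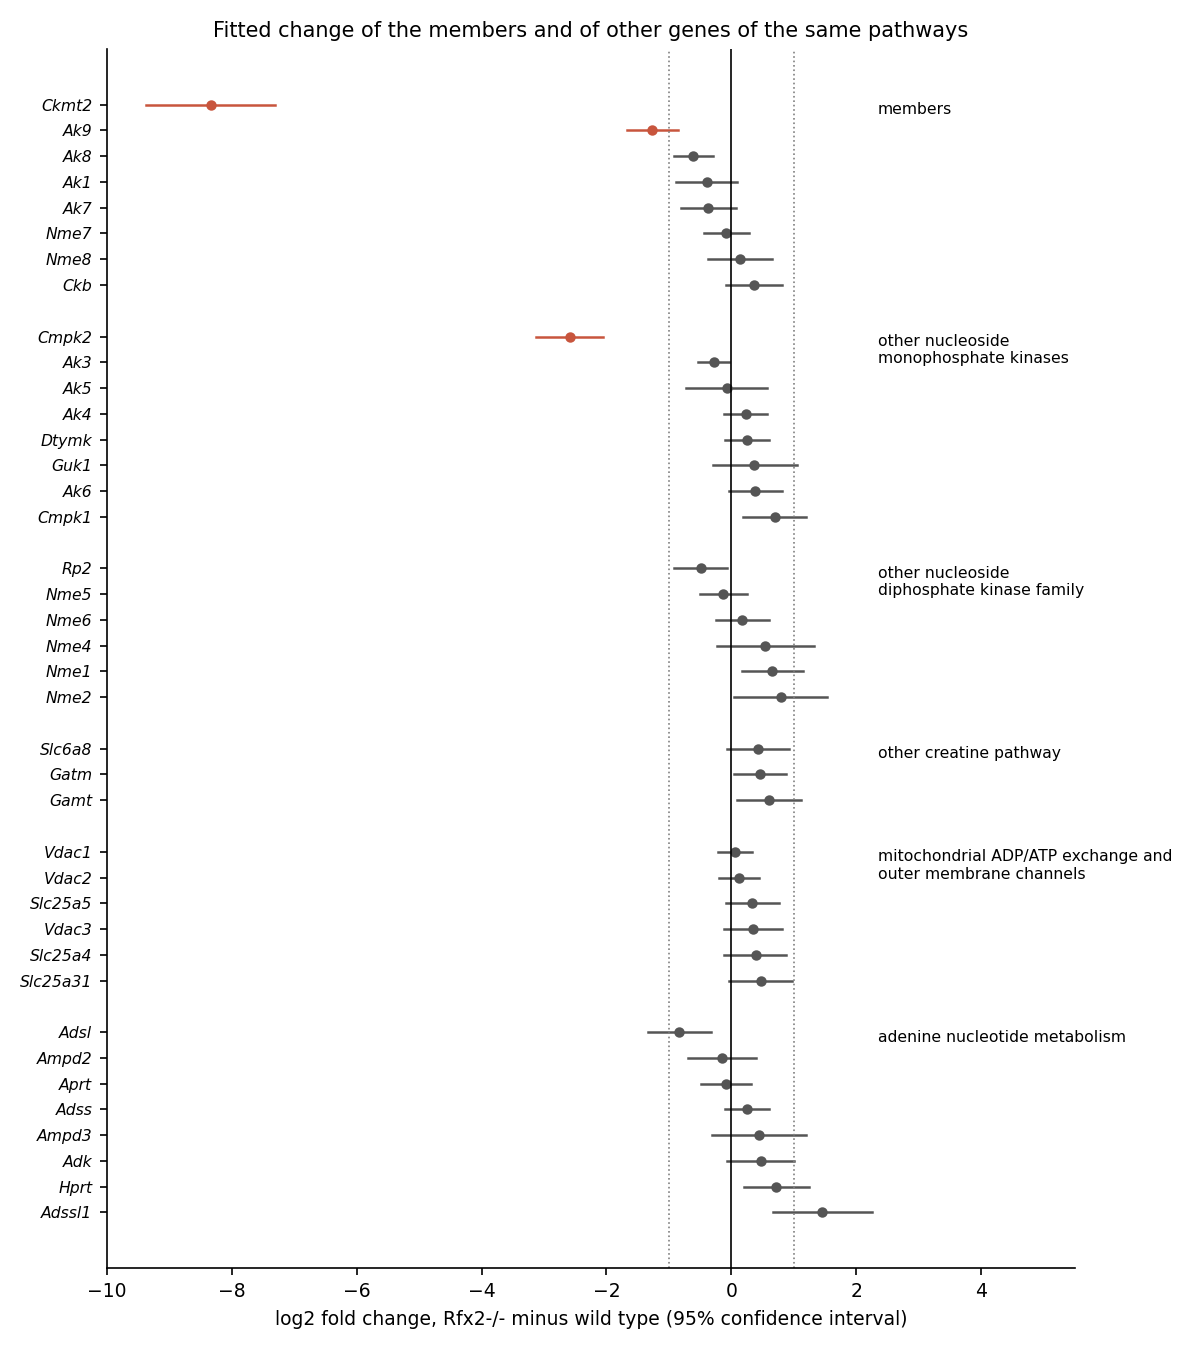
Fitted log2 fold change, Rfx2-/- minus wild type (horizontal axis), with its 95% confidence interval for the 8 kinase genes tested and for 31 other genes of the same pathways, the dotted lines marking a 2-fold change and red marking called genes. Ckmt2 at -8.34, Ak9 at -1.27 and Cmpk2 at -2.59 were called lower, and the remaining genes lay between -0.83 and 1.46.

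Within wild type testes the 9 mRNAs spanned a wide range of levels per exon length. Ak8 led with 162.4 ± 20.4 CPM per kb, followed by Nme8 with 88.98 ± 12.6 and Ak1 with 74.98 ± 14.4, which overlapped each other. Ak7 followed with 46.2 ± 4.66, then Ak9 with 26.5 ± 2.22 and Nme7 with 25.8 ± 2.71, which also overlapped. Ckmt2 with 13.6 ± 2.89, Ckb with 3.44 ± 0.339 and Ckmt1 with 0.0687 ± 0.0517 CPM per kb closed the order (SD, n = 5 each), each apart from its neighbours. In Rfx2-/- testes the first 5 places went to Ak8 (106.6 ± 8.56), Nme8 (97.87 ± 39.1), Ak1 (57.07 ± 20.1), Ak7 (35.74 ± 10.6) and Nme7 (24.5 ± 5.66), with each neighbouring pair overlapping. Ak9 (11.02 ± 2.88), Ckb (4.45 ± 1.22), Ckmt1 (0.128 ± 0.0697) and Ckmt2 (0.0454 ± 0.0524 CPM per kb, SD, n = 4 each) came last, and both mitochondrial creatine kinases overlapped. Ckmt2 thus moved from above both other creatine kinases to the last place.

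Other genes of these pathways were mostly not called. Of 35 genes in 5 lists, 31 were tested, 1 was called lower and 0 higher, with 23 of the 31 above 0 and a median log2 fold change of 0.35, where 8297 of all 15613 genes tested were above 0. The size rested on Rfx2-/- replicate 2, without which the median of the 31 genes was 0.10, with 24 above 0. Among the other nucleoside monophosphate kinases, Cmpk2 was called lower. It encodes the mitochondrial UMP-CMP kinase and had 4.354, 3.172, 3.919, 4.641 and 5.219 CPM in wild type replicates 1 to 5 and 0.5309, 0.8016, 0.8171 and 0.719 CPM in Rfx2-/- replicates 1 to 4. The groups were far apart, and Cmpk2 was at 16.8% of wild type in Rfx2-/- testes (log2 fold change -2.59, SE 0.24, edgeR adjusted p 1.63e-05). The remaining 7 genes of that list lay between -0.28 and 0.70, and the lowest adjusted p among them was 0.078 for Cmpk1, the cytosolic UMP-CMP kinase, whose log2 fold change of 0.70 was 0.35 without Rfx2-/- replicate 2.

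In the nucleoside diphosphate kinase family, 6 of 8 other genes were tested and 0 called, with log2 fold changes of -0.48 to 0.79 and the lowest edgeR adjusted p, 0.0795, for Nme1. Without Rfx2-/- replicate 2 the 6 genes lay between -0.65 and 0.40, with Nme2 going from 0.79 to 0.31, Nme4 from 0.54 to 0.16 and Nme1 from 0.66 to 0.40. Of the 50-base stretches of Nme2, 47.01% also occur in another gene, and of those of Nme1 11.11%, mainly in Gm20390 for both. Their levels and shares may therefore be undercounted. Nme5, a family member of motile cilia, took a share of 37.8% ± 1.77 of the family sum in wild type and 34.1% ± 2.60 in Rfx2-/- testes. Nme8 took 34.5% ± 2.60 and 36.1% ± 3.25, and Nme7 10.1% ± 1.12 and 9.375% ± 0.841, all with overlap. The smaller share of Nme1 did not overlap, at 1.172% to 1.949% in wild type and 2.069% to 2.687% in Rfx2-/- libraries. Neither did that of Nme9, which rests on very few counts. Nme9 was not tested, with 2 to 9 counts in wild type libraries and 2, 0, 0 and 0 in Rfx2-/- replicates 1 to 4. Nme3 had 0 counts in every library, and 90.09% of its 50-base stretches also occur in Mrps34 or other genes, so that its level cannot be read from these counts.

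The other genes of creatine metabolism were Gatm and Gamt, the enzymes of creatine synthesis, Slc6a8, the creatine transporter, and Ckm, which was not tested. The 3 tested genes had log2 fold changes of 0.43 to 0.60 and none was called, with the lowest edgeR adjusted p, 0.125, for Gamt. Without Rfx2-/- replicate 2, Gatm went from 0.46 to 0.27 and Gamt from 0.60 to 0.27. The 6 genes of mitochondrial ADP/ATP exchange and of the outer membrane channels had log2 fold changes of 0.06 to 0.47, and the lowest edgeR adjusted p was 0.204 for Slc25a31, the exchanger of the germ line. All 6 were at 0.03 to 0.14 without Rfx2-/- replicate 2, with Slc25a31 at 0.11 in place of 0.47. Of 9 genes of adenine nucleotide metabolism, 8 were tested and 0 called, with values from -0.83 to 1.46. The lowest edgeR adjusted p, 0.0218, belonged to Adssl1, which encodes the muscle-type adenylosuccinate synthase and had 0.701 to 4.43 CPM in wild type and 5.28 to 9.80 CPM in Rfx2-/- libraries without overlap. With DESeq2 it passed both limits (log2 fold change 1.48, adjusted p 0.00109, the lowest over all alternatives). The highest adjusted p was 0.908, in the edgeR test against the 2-fold limit.

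Rfx2-/- replicate 2 stood apart from the rest of its group in a way that followed exon length. Genes with under 2000 exon bases had a median log2 deviation of 0.61 in it and those with over 8000 one of -0.93, against -0.37 to 0.01 and 0.01 to 0.53 in the other 3 Rfx2-/- libraries. It was the highest Rfx2-/- library for 5 of the 9 kinase genes, namely Ak1, Ak8, Nme7, Nme8 and Ckmt1. It was the lowest for Ak7 and Ak9, the 2 with the greatest total length of merged exons. Relative to the mean of the other 3 Rfx2-/- libraries its log2 CPM ratio was 0.90 for Nme8, 0.87 for Ak1 and -0.96 for Ak7. For Ak9 it was -0.80, and Ak9 was still called without this library (log2 fold change -1.10, edgeR adjusted p 2.24e-05) and with the length trend of each library removed (-1.14, edgeR adjusted p 5.01e-05). Ckmt2 was called under both as well, with values of -8.93 and -8.45. For Ak1, Ak7, Nme7 and Nme8 the spread among Rfx2-/- libraries, SD 47.4, 33.0, 9.98 and 82.9 CPM, was larger than among wild type libraries. The spread was also larger for Ak9, Ckb and Ckmt1, and smaller for Ak8 and Ckmt2.

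**Figure D4:**
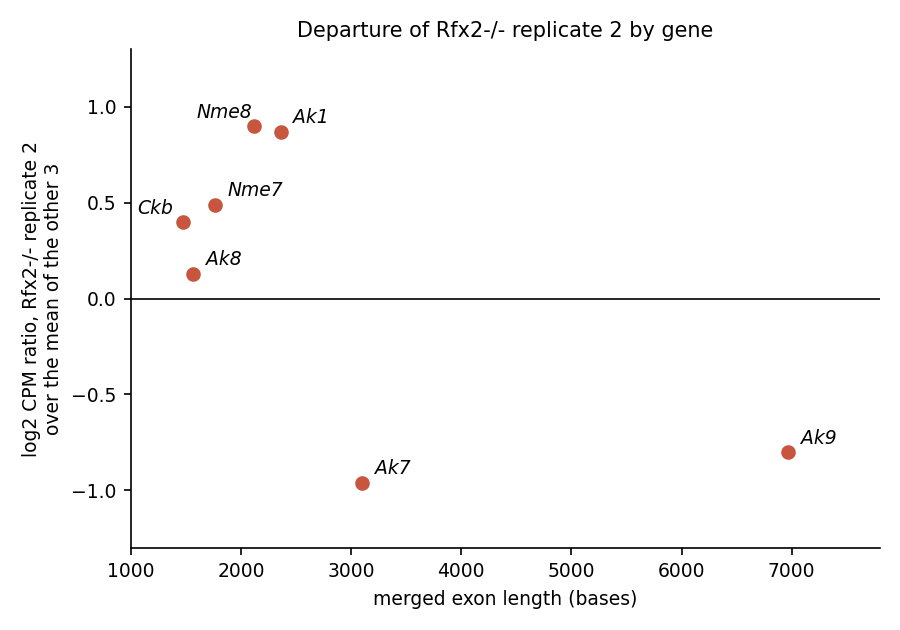
Log2 ratio of the CPM in Rfx2-/- replicate 2 to the mean of the other 3 Rfx2-/- libraries (vertical axis) against merged exon length in bases (horizontal axis), with 1 point for each of 7 kinase genes, Ckmt1 and Ckmt2 being left out for their low counts. Ak7 and Ak9, the longest of the 7, lay at -0.96 and -0.80 and the 5 shorter genes between 0.13 and 0.90.

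Wild type replicate 3 was the lowest wild type library for 6 of the 9 kinase genes, namely Ak1, Ak7, Ak8, Nme8, Ckb and Ckmt2, and it also had the lowest sum of elongating spermatid markers, 9772 CPM where the rest of that group had 14910 to 20400. The part of the spermatid stages in the levels of these kinases was not tested. Neither Ak9 nor Ckmt2 lost its call without this library (log2 fold change -1.24, edgeR adjusted p 0.00272, and -8.43, edgeR adjusted p 9.52e-07).

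Genes whose log2 CPM followed a kinase most closely over the 9 libraries were listed for the 8 kinase genes tested, from 12828 genes with a mean of at least 50 counts, as a description over libraries that share genotype, depth and length trend. For Ckmt2 these were Aldh3b2, 1700024G13Rik and Aldh3b1 (Pearson r 0.998, 0.998 and 0.997), which had log2 fold changes of -6.28, -5.39 and -3.48. Ak9 was followed by Ttc25, a gene of the docking of outer dynein arms, Wdr78, a gene of an axonemal dynein, and Col12a1, a collagen gene (0.995, 0.993 and 0.992), and Ak8 by Ttll2, Gzmn and BC048562 (0.993, 0.990 and 0.989). For Ak7 they were Ccdc136, Qrich2 and Lrrc63 (0.998, 0.991 and 0.990) and for Ak1 Cabs1, 4930505A04Rik and Spz1 (0.992, 0.991 and 0.990). Nme8 was matched by Ddit3, Eipr1 and Rita1 (0.976, 0.962 and 0.959), Nme7 by Ube2j2, Ppp1r36 and Slc25a2 (0.971, 0.961 and 0.951) and Ckb by Cavin1, Oaf and Csrp1 (0.938, 0.938 and 0.927). None of these 8 kinase genes was among the nearest genes of another.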

How the data were processed

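Counts were taken as the authors deposited them, as raw reads per gene in whole numbers. According to the study's methods and the submitters' processing notes, TruSeq libraries of total RNA were sequenced as single reads on a HiSeq 2000, processed with CASAVA 1.8.2, mapped to GRCm38 with STAR 2.4 and counted over merged exons with featureCounts 1.4.6. Reads that mapped to several positions or fell on exons of more than 1 gene were not counted. The same methods also name another aligner and read length, and the use of strand is not stated. Every per-sample column was matched to its mouse by animal number, and 0 were left unused.

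Gene names, positions and exon lengths came from GENCODE M21, which contained 96.6% of the IDs. Differences were assessed by edgeR 4.0.16 under R 4.3.3 with its quasi-likelihood test (TMM factors, robust fit, filterByExpr, genotype alone), with Benjamini-Hochberg adjustment over all 15613 genes tested, at an adjusted p of 0.01 and a 2-fold change. Intervals of fold changes are at 95%. DESeq2 1.42.0 served as an alternative, and the procedure was checked on simulated counts. Levels between genes were compared as CPM per kilobase of merged exons only. Nothing in the labels says more of the replicates than that they are separate mice. The floors and the pooled intervals of Ckmt2 cover counting error only, and the reads carry no molecular identifiers. The fold change intervals come from the edgeR fit and take in the spread between libraries.

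The genes named are the 9 kinases in full, Rfx2, each called gene of 5 lists of related genes with the uncalled one of lowest adjusted p, genes that overlap a kinase gene or start within 1 kb of one, and the 3 genes most correlated with each. The kinases, lists and alternatives were chosen with earlier results of these data known. The result of 1 gene of these lists is not reported here. Promoters are RefSeq windows on GRCm38.p6.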

Additional observations from a re-analysis of the deposited data

Results flagged for a closer look

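The total count of Rfx2-/- replicate 1 was 28800855, against 13605958 to 15193330 in the other Rfx2-/- libraries, and its distance to the nearest of them was 0.896 of the range of the group. Of 28 groups of values compared in this way it was the only one outlying, where about 1.4 would be by chance. For the kinase genes this library had the lowest floor, 0.0995 CPM, and Ckmt2 had 0 counts in it.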

How the results depend on the processing

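Counts of calls and log2 fold changes of the tested genes were recomputed under 17 alternatives, and levels per kilobase under 1, while shares and pooled counts have none. Ckmt2 was called lower under all 17, with log2 fold changes of -8.93 to -7.66. The test against the 2-fold limit left 1 kinase gene called, with Ak9 at -1.27 no longer passing, and 272 genes lower and 29 higher. With the adjusted p eased to 0.05 and no fold limit there were 1142 lower and 544 higher genes, Ak8 (-0.61) was added to the kinases called, and the related genes had 2 lower and 1 higher. DESeq2 called 198 genes higher and an unadjusted p of 0.01 called 262, each with 1 related gene higher. Scaling by total counts moved the median of all genes from 0.03 to 0.16 and turned Nme7 to 0.06, Ak5 to 0.04, Nme5 to 0.01 and Aprt to 0.05. Removal of the length trend turned Nme6 to -0.01 and Vdac1 to -0.02. The cause of these changes was not tested.

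Leaving out 1 library at a time gave 447 to 632 genes lower and 92 to 175 higher, and 2 kinases lower and 0 higher each time. The log2 fold change ranged from -0.67 to -0.24 for Ak1, -0.46 to -0.18 for Ak7, -0.64 to -0.53 for Ak8, -1.35 to -1.10 for Ak9, -0.22 to 0.05 for Nme7, -0.15 to 0.33 for Nme8 and 0.24 to 0.55 for Ckb. Not called genes that turned were Nme7 (0.03 and 0.05 without Rfx2-/- replicates 1 and 3), Nme8 (-0.15 without Rfx2-/- replicate 2), Ak5 (0.17 without wild type replicate 3, and 0.09 and 0.01 without Rfx2-/- replicates 2 and 4), Nme5 (0.01 without Rfx2-/- replicate 1, with -0.29 the lowest), Aprt (0.05 and 0.06 without Rfx2-/- replicates 1 and 3), Nme6 and Ampd2 (-0.06 and 0.07 without Rfx2-/- replicate 2, with -0.32 the lowest for Ampd2). Ckmt1 was fitted only with all genes that had a count (log2 fold change 0.82, SE 0.65, edgeR adjusted p 0.463), and the other alternatives listed for it gave no value. Lengths of the longest transcript in place of merged exons moved no wild type level by more than its SD. No paired analysis was possible because the labels give animal numbers and no pairing, and replicate numbers follow the order of deposition.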
